A study of Mus musculus with 6 samples.

Results

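The effect of doxorubicin under ginsenoside Rh2 at 20 mg/kg was described from 1 pair of heart libraries, Rh2-20 + Dox against Rh2-20. Both groups received the same daily Rh2 and differed only in doxorubicin (Dox), so the ratio of the pair holds the Rh2 dose constant and does not use the Control library. These are 2 of the 6 libraries of the series. The comparison took in 18328 of the 45777 genes in the deposited table, those whose counts averaged 10 or more across all libraries.

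The animals were female BALB/c nude mice (CAnN.Cg-Foxn1nu/Crl) of 6 weeks that carried subcutaneous MDA-MB-231 tumours, a human triple-negative breast cancer line. Treatment lasted 3 weeks. The Rh2-20 group was given Rh2 at 20 mg/kg each day, and the Rh2-20 + Dox group was given this together with Dox at 2 mg/kg on alternate days up to a cumulative 22 mg/kg. The Control and Dox groups (no Rh2) and the Rh2-30 and Rh2-30 + Dox groups (Rh2 at 30 mg/kg) form 2 further pairs, which share no library with this one and were set beside it. Each library was pooled from 5 hearts and no group has a second library, so a ratio within the pair has no replicate check and no p-value. All groups bore tumours and lack the Foxn1-dependent thymus, and every library is a pool of whole hearts, with no single animal measured.

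Doxorubicin is an anthracycline that traps type II topoisomerases on DNA, which leaves double-strand breaks and stops cells that are about to divide. It is known for dose-dependent injury to the heart, where adult cardiomyocytes rarely divide and share the tissue with fibroblasts, endothelial cells and blood-derived cells that can. Ginsenoside Rh2 is a saponin derived from ginseng. Genes of mitosis are switched on together late in the cell cycle through promoter elements called CHR and CCAAT boxes, read by the DREAM and MuvB complexes, FOXM1 and NF-Y.

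The deposited read counts summed to 89419499 in Rh2-20 and 89742232 in Rh2-20 + Dox, within the range of 86164411 to 90621002 over the 6 libraries. Ventricular myocyte markers such as Myh6 and Tnnt2 were abundant in every library, with a sum of 1808747 to 2558904 normalized counts over 9 genes, as the heart label has it. Ratios are log2 ratios of TMM-normalized counts after 0.5 was added as a prior, given with a 95% interval that adds a common dispersion of 0.0285 to the counting error. For a gene with many counts this interval reaches 0.67 to either side, and it rests on the assumption that the 6 libraries vary around 1 level. A gene was called when it differed by at least 2-fold.

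Of the genes compared, 750 were at least 2-fold higher in Rh2-20 + Dox than in Rh2-20 (4.09%) and 526 were at least 2-fold lower (2.87%), around a median log2 ratio of 0. The interval with the dispersion lay clear of 0 for 617 of the higher and 441 of the lower genes. In 166 of the higher and 119 of the lower genes 1 of the 2 libraries held 3 counts or fewer. Among the 13961 genes that averaged 100 counts or more the calls were fewer, 188 higher (1.35%) and 154 lower (1.1%). The lower genes with the largest ratios, over 3 counts in both libraries and at least 100 in 1 of them included the mitotic genes Nek2, Cep55, Bub1, Troap and Cdca8. The higher ones included Bmp10 of the atrium and the platelet genes Gp9, Clec1b and Tubb1.

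**Figure D1:**
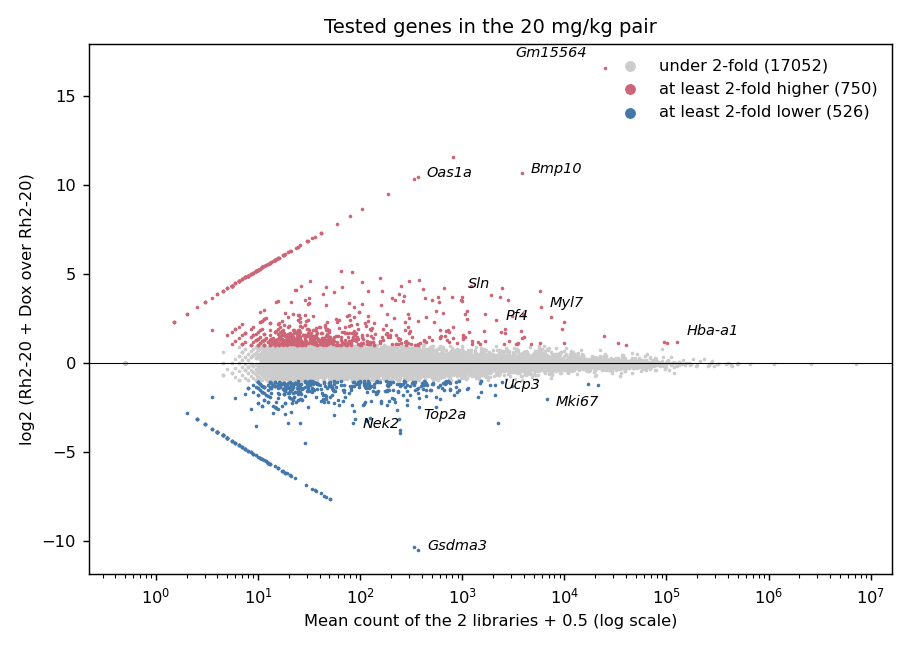
Log2 ratio of Rh2-20 + Dox over Rh2-20 for the 18328 genes, plotted against the mean count of the 2 libraries plus 0.5 on a log scale, 1 point per gene. The 750 genes at least 2-fold higher are red and the 526 at least 2-fold lower are blue, and the diagonal lines at the left are genes with 0 counts in 1 library.

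The clearest group of lower genes was that of the G2 and M phases. Of 69 genes on the G2/M list, 37 were at least 2-fold lower with Dox (53.6%, against 2.87% of all genes), none was at least 2-fold higher, and 62 had a log2 ratio below 0. The median log2 ratio of the list was -1.07. The interval with the dispersion lay below 0 for 43 of the 69. In bulk tissue fewer dividing cells and less of these transcripts per cell cannot be told apart.

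Among the kinases, Nek2, which separates the centrosomes, had 155 counts in Rh2-20 and 15 in Rh2-20 + Dox, 136 in Control and 20 in Dox, and 151 in Rh2-30 and 14 in Rh2-30 + Dox. Its counts with Dox lay far below those without Dox at each Rh2 dose, and the log2 ratio at 20 mg/kg was -3.35 (interval with the dispersion -4.36 to -2.34). Bub1, a kinase of the spindle checkpoint, had 433 counts in Rh2-20 and 50 in Rh2-20 + Dox, 275 and 95 in Control and Dox, and 469 and 19 in the Rh2-30 pair. It was 8.73-fold lower at 20 mg/kg (log2 ratio -3.13). Ttk, another checkpoint kinase, was 4.74-fold lower, with 263 and 56 counts. Cdk1, the kinase that drives entry into mitosis, had 209 and 48 counts (log2 ratio -2.14, interval -2.95 to -1.32). Its partner cyclins were lower as well, with log2 ratios of -1.70 for Ccnb1 and -1.07 for Ccna2. Aurkb, of the chromosomal passenger complex, stood at -2.17, but Plk1 at -0.95 and Aurka at -0.74 did not reach 2-fold.

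Several genes of the kinetochore and spindle were lower too. Kntc1, Cep55 and Troap are outside the list and were named for the size of their falls, so their direction was fixed by that choice. Kntc1, a subunit of the RZZ complex at the kinetochore, had 944 counts in Rh2-20 and 173 in Rh2-20 + Dox, 843 and 193 in Control and Dox, and 1169 and 76 in the Rh2-30 pair, 5.54-fold lower at 20 mg/kg. Each library with Dox was below each library without. The motor proteins Kif18b (148 and 23 counts), Kif2c (178 and 35) and Kif11 (866 and 237) had log2 ratios of -2.68, -2.35 and -1.89. Cep55, which acts in the last step of cell separation, had 208 and 22 counts (-3.24), and Troap, a spindle protein, 158 and 18 (-3.12). Cenpf, a kinetochore protein, had 2922 counts in Rh2-20 and 1243 in Rh2-20 + Dox, 2830 and 1097 in Control and Dox, and 2768 and 1196 in the Rh2-30 pair. Its ratios of -1.26, -1.38 and -1.08 in the 20, 0 and 30 mg/kg pairs were close to each other. Mki67, the source of the Ki-67 proliferation antigen, had the most counts among the called genes of the list, 10708 and 2664, a log2 ratio of -2.03 (interval -2.71 to -1.35).

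Cdc25c, the phosphatase that activates Cdk1, had 88 counts in Rh2-20 and was listed at 0 in Rh2-20 + Dox, at least 29.9-fold lower by a floor of 3 counts per library. It was listed at 0 in Dox and in Rh2-30 + Dox too, against 47 and 58 counts in Control and Rh2-30. The 7 members of the list above 0 were Tmpo, Jpt1, Tubb4b, Hjurp, G2e3, Cbx5 and Ncapd2, none past a log2 ratio of 0.29. Tmpo, a nuclear lamina protein, had 6505 and 8077 counts.

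**Figure D2:**
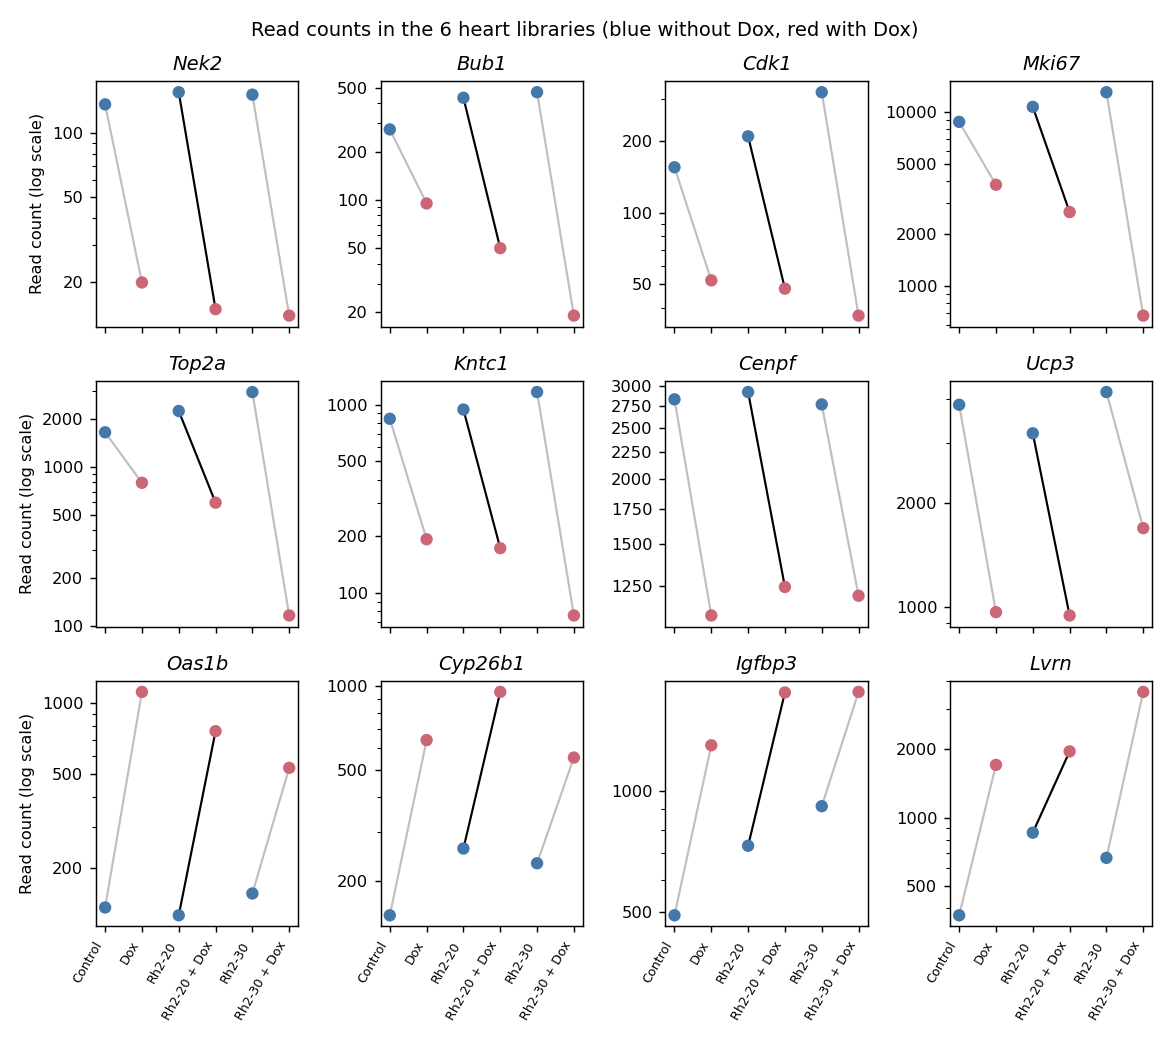
Read counts of 12 genes in each of the 6 libraries on a log axis, with blue points for libraries without Dox, red points for those with Dox, and a line joining each pair (black for the 20 mg/kg pair). Nek2 stands at 155 and 15 counts in that pair and Oas1b at 126 and 763. For all 12 genes the 3 pairs slope the same way, but some were named because their ratios share a sign in all 3 pairs. Of the 18328 genes, 3223 were below 0 and 2917 above 0 in all 3 pairs.

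The G2/M genes were compared with the other 2 pairs. In Dox against Control, where 5.44% of all genes were at least 2-fold higher and 3.58% lower, 26 of the 69 were at least 2-fold lower and the median was -0.68. In Rh2-30 + Dox against Rh2-30, where 2.4% of all genes were at least 2-fold higher and 12.1% lower, 50 were lower and the median was -1.80. The 20 mg/kg pair lay between them. At least 2-fold lower in all 3 pairs were 24 genes of the list, out of 91 in the whole table (0.497%), and 51 of the 69 were below 0 in all 3. Without Dox the counts of Mki67 also differed between groups, 8783 in Control, 10708 in Rh2-20 and 13001 in Rh2-30.

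With 1 library per group, the Dox effect can be tested only across Rh2 doses, against the variation of the Dox ratio between doses. That variation mixes differences of the effect between doses with differences between pools, and the 2 cannot be told apart. In edgeR's quasi-likelihood test with Rh2 dose as a term and 2 residual degrees of freedom, no gene passed an adjusted p of 0.05 (0%), while 1598 had an unadjusted p under 0.05, 934 of them lower with Dox. Nek2 and Cenpf shared the lowest adjusted p of that test with other genes (adjusted p = 0.476, edgeR), with log2 effects of -3.15 ± 0.30 and -1.24 ± 0.10 (SE). The result turned on the Rh2-30 pair. Without it, in the 20 and 0 mg/kg pairs alone with 1 residual degree of freedom, 283 genes were higher (1.54%) and 204 lower (1.11%) at an adjusted p under 0.05, and 24 of the 69 G2/M genes were among the lower ones and none among the higher. Of these Cenpf had an adjusted p of 0.00210 (edgeR), Mki67 of 0.0122 and Cdk1 of 0.0320. DESeq2's Wald test over the 3 pairs called 103 genes higher (0.573%) and 208 lower (1.16%), with 30 G2/M genes lower and none higher.

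The start regions of the G2/M genes are shown because the genes moved together and carry known cell cycle elements. Promoters of 300 bases (250 before to 50 after the start) were taken from RefSeq on GRCm38.p6 for 12805 of the genes compared and 58 of the G2/M list, with 1 start per gene. The CHR was searched as TTTGAA or TTCGAA and the CCAAT box as CCAAT, on both strands. A CHR was found in 72.4% of the G2/M promoters and 14.6% of all promoters, and a CCAAT box in 77.6% and 38.8%. Both were present in 62.1% and 6.29%. Of the 28 G2/M promoters whose gene was at least 2-fold lower at 20 mg/kg, 78.6% held a CHR and 75% a CCAAT box, near the shares of the whole list. Of the 363 promoters of all genes at least 2-fold lower, 29.2% held a CHR and 42.1% a CCAAT box. Below, 150 bases run from 120 before to 30 after the start, 5′ to 3′ on the gene's strand, with CHR and CCAAT matches in capitals.
Bub1 (chr2:127831830-127831979, minus strand): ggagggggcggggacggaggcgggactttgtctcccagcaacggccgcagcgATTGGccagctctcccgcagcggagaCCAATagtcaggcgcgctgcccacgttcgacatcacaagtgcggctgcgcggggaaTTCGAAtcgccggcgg
Ttk (chr9:83834569-83834718, plus strand): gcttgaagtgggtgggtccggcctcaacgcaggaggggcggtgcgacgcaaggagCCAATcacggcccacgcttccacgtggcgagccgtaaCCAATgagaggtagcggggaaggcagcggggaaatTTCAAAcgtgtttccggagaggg
Cdk1 (chr10:69352883-69353032, minus strand): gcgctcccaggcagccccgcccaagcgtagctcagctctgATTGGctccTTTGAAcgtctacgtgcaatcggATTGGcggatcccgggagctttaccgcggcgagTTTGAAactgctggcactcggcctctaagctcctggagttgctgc
Kntc1 (chr5:123749606-123749755, plus strand): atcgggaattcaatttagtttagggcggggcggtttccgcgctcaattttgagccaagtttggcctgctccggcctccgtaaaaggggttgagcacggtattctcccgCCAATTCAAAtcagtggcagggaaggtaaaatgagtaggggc
Nek2 (chr1:191821353-191821502, plus strand): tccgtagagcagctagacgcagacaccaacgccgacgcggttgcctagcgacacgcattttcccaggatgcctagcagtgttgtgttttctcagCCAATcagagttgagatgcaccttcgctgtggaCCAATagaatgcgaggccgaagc

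In Bub1 and Ttk a pair of CCAAT boxes precedes a single CHR at the start site, 14 bases downstream of it in Bub1 and 7 in Ttk. Cdk1 holds 2 CCAAT boxes and 2 CHR matches, the nearer of the latter 15 bases upstream. In Kntc1 the CCAAT box overlaps the CHR on the opposite strand, which gives the run CCAATTCAAA. Nek2 holds 2 CCAAT boxes and no CHR in the 300 bases. A match is a sequence feature and not a measured binding site.

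S phase genes were lower to a smaller degree. Of 46 on the list, 8 were at least 2-fold lower (against 2.87% of all genes) and none higher, with 39 below 0 and a median of -0.21, against -0.27 in Dox over Control and -0.21 in the Rh2-30 pair. Dtl, an adaptor for degradation of licensing factors, had 359 counts in Rh2-20 and 81 in Rh2-20 + Dox (log2 ratio -2.17), and E2f1, an activator of S phase transcription, 264 and 90 (-1.57). Uhrf1, which maintains DNA methylation at replication, had 652 and 236 (-1.49). Of the 6 topoisomerase genes only Top2a, the form of dividing cells and a target of doxorubicin, was called, with 2238 counts in Rh2-20 and 596 in Rh2-20 + Dox, 1646 and 794 in Control and Dox, and 2942 and 117 in the Rh2-30 pair. Top2b, the form found in cardiomyocytes, had 30262 and 26574 counts in the 20 mg/kg pair, a log2 ratio of -0.21 (interval -0.89 to 0.46).

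Replication-dependent histone genes, listed by their clustered symbols after their values had been seen, were lower in the 20 mg/kg pair. Of 62 compared, 25 were at least 2-fold lower (against 2.87% of all genes) and none higher, with a median of -0.69. In Dox over Control none of the 62 was at least 2-fold lower (against 3.58% of all genes) and the median was -0.09. In the Rh2-30 pair 38 were (against 12.1% of all genes) and the median was -1.42. H3c3 had 592 counts in Rh2-20 and 153 in Rh2-20 + Dox, 366 and 233 in Control and Dox, and 904 and 48 in the Rh2-30 pair. H2bc14 had 460 and 111, 203 and 113, and 546 and 33 in the same order. For both genes the libraries without Dox were higher with Rh2 than in Control. These genes are near-identical in their coding parts, so reads could be split between copies in the authors' counting.

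Most genes that answer DNA damage stayed under 2-fold. Of 39 p53 targets none was at least 2-fold higher, and the median was 0.06. Cdkn1a, the p21 inhibitor of cyclin-dependent kinases, had 431 counts in Rh2-20 and 681 in Rh2-20 + Dox, 230 and 368 in Control and Dox, and 559 and 753 in the Rh2-30 pair. Each pair was higher with Dox, with log2 ratios of 0.63, 0.66 and 0.56, but the interval with the dispersion at 20 mg/kg was -0.06 to 1.33. Fas, a death receptor, stood at 0.63 as well (-0.04 to 1.31). In the 20 and 0 mg/kg pairs alone, edgeR called 3 of the 39 p53 targets higher and 1 lower. Of all genes it called 1.54% higher and 1.11% lower. In that fit Fas was higher (adjusted p = 0.0177, edgeR). The 2 p53 targets at least 2-fold lower were Ckap2, a spindle gene also on the G2/M list, and Pmaip1, with 31 and 12 counts. Of 30 DNA repair genes 2 were at least 2-fold lower, where 2.87% of all genes were, Brca1 (586 and 257 counts, -1.21) and Fanci (201 and 99, -1.04), both of which peak in dividing cells. Neil3, a DNA glycosylase of proliferating cells, had 397 and 64 counts (-2.65).

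**Figure D3:**
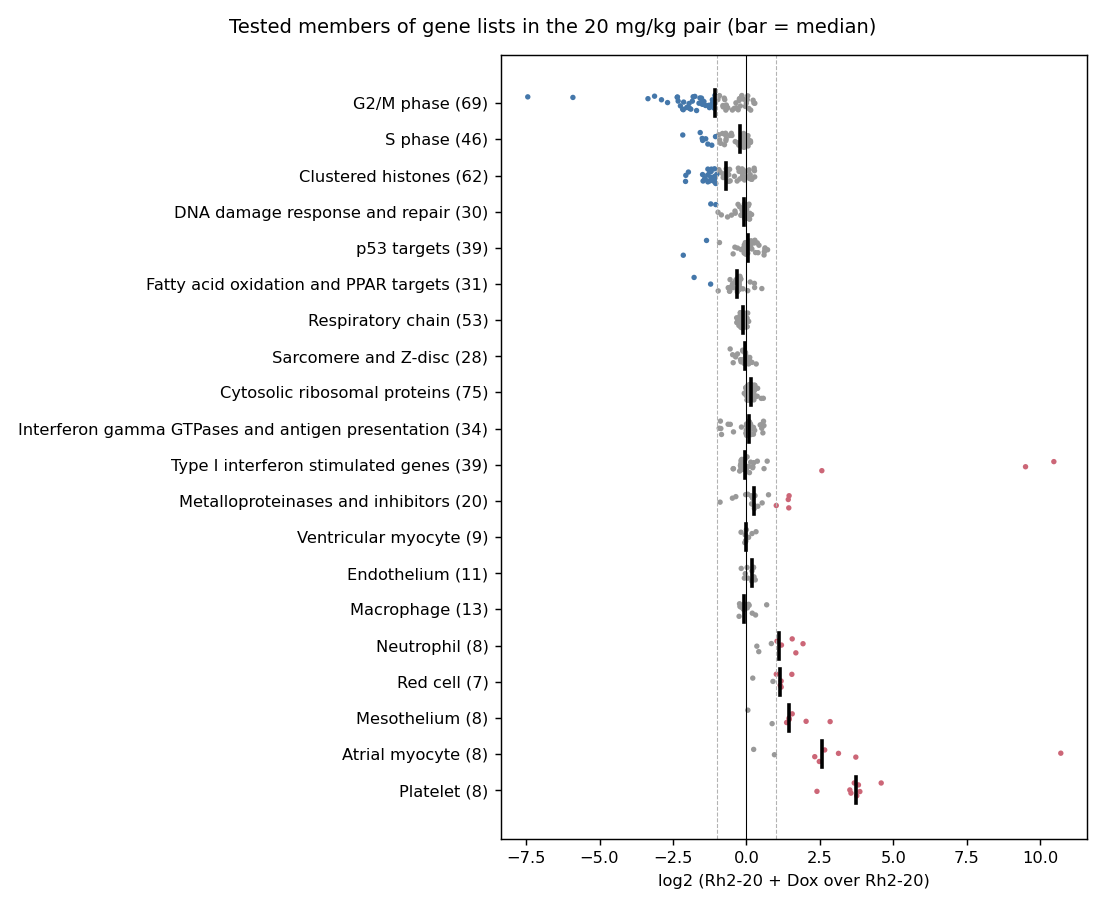
Log2 ratios of Rh2-20 + Dox over Rh2-20 for the tested members of 20 gene lists, 1 point per gene with the number of genes in brackets, a black bar at the median and dashed lines at 2-fold. Blue points at least 2-fold lower gather in the G2/M list (37 of 69) and red points at least 2-fold higher in the platelet list (8 of 8), while the sarcomere and respiratory chain lists lie near 0.

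Far fewer genes were at least 2-fold higher in all 3 pairs, 34 of those compared (0.186%). Ranked by the smallest of the 3 ratios, with over 3 counts in both libraries of the 20 mg/kg pair, the first were Oas1b, Cstdc4, Cyp26b1, Lvrn and Igfbp3. Oas1b, a member of the oligoadenylate synthetase family that senses double-stranded RNA and annotated here as a transcribed pseudogene (chromosome 5, 120812635 to 120824163), had 126 counts in Rh2-20 and 763 in Rh2-20 + Dox, 136 and 1120 in Control and Dox, and 156 and 533 in the Rh2-30 pair. The 3 libraries without Dox were close to one another and all below the 3 with Dox, and the log2 ratio at 20 mg/kg was 2.57 (interval 1.84 to 3.30). Cyp26b1, an enzyme that clears retinoic acid (chromosome 6, 84571414 to 84593908), had 262 and 954 counts, 151 and 641, and 232 and 555 in the same order, 3.57-fold higher at 20 mg/kg. Igfbp3, a carrier of insulin-like growth factors (chromosome 11, 7206086 to 7215498), had 730 and 1758, 490 and 1299, and 916 and 1764, 2.37-fold higher. Oas1b, Cyp26b1 and Igfbp3 each had an adjusted p of 0.476 over the 3 doses in edgeR, which called no gene. DESeq2's Wald test over the same pairs called all 3 (adjusted p = 7.23e-13 for Oas1b, 3.10e-09 for Cyp26b1 and 4.13e-11 for Igfbp3), as did edgeR without the Rh2-30 pair (0.00104, 0.00297 and 0.00382). Lvrn, an aminopeptidase, had 860 and 1961 counts at 20 mg/kg and Cstdc4, a stefin-like gene, 42 and 132.

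Oas1a and Oas1g were listed at 0 in Rh2-20, as in Control and Rh2-30. Oas1a had 732 counts in Rh2-20 + Dox, 850 in Dox and 447 in Rh2-30 + Dox, and Oas1g 375, 382 and 234. Against a floor of 3 counts per library, they were at least 240-fold and 123-fold higher in the 20 mg/kg pair. Oas1a, Oas1b and Oas1g lie close together on chromosome 5 and are alike in sequence, so counts could be shared between them. The rest of the type I interferon list did not follow. Of 39 genes these 3 were the only ones at least 2-fold higher at 20 mg/kg (7.69%, against 4.09% of all genes). Of the 39, 24 were below 0, and the median was -0.04. Their start regions, shown because both genes are at 0 without Dox in every pair, are almost the same. Matches to GAAA followed by any 2 bases and GAAA again, the core of the interferon-stimulated response element, to CCAAT and to the CHR letters are in capitals.
Oas1a (chr5:120907496-120907645, minus strand): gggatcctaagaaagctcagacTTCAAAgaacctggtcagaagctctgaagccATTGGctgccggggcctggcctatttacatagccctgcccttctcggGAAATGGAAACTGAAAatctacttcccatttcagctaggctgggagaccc
Oas1g (chr5:120887584-120887733, minus strand): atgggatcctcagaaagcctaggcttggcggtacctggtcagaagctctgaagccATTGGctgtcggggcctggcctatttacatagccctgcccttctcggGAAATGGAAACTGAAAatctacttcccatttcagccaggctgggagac

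Each start region holds 2 overlapping matches to this pattern within 20 bases upstream of the start, which 3.19% of all promoters hold at least once on either strand of their 300 bases. Both lie in the run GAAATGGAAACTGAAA.

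Platelet genes made up the most complete list on the higher side. All 8 were at least 2-fold higher in Rh2-20 + Dox (against 4.09% of all genes), with a median log2 ratio of 3.71. Gp9, a subunit of the von Willebrand factor receptor (chromosome 6, 87776131 to 87779786), had 23 counts in Rh2-20 and 575 in Rh2-20 + Dox, 46 and 301 in Control and Dox, and 65 and 26 in the Rh2-30 pair. Itga2b, the alpha chain of the fibrinogen receptor, had 429 and 5153, 496 and 3352, and 1064 and 479. Pf4, a chemokine of platelet granules, had 672 and 3616, 524 and 2714, and 984 and 425. In each of the 3 genes the libraries Rh2-20 + Dox and Dox stood apart above the other 4. The receptor Clec1b at 4.31 and the platelet tubulin Tubb1 at 4.23 are outside the list and were named for being among the largest ratios at 20 mg/kg. Other platelet genes outside the list were not counted. Summed over the 8 list genes, the level was 1623 normalized counts in Rh2-20, 15875 in Rh2-20 + Dox, 1686 in Control, 10990 in Dox, 3367 in Rh2-30 and 1361 in Rh2-30 + Dox.

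Red cell genes moved in the same libraries. The sum over 7 genes was 231780 in Rh2-20 and 523913 in Rh2-20 + Dox, 321085 and 934155 in Control and Dox, and 292803 and 146854 in the Rh2-30 pair. Of the 7, 5 were at least 2-fold higher at 20 mg/kg (against 4.09% of all genes), with a median of 1.15. Hba-a1, an alpha globin that shares its sequence with Hba-a2, had 77286 and 178496 counts (log2 ratio 1.18), and Alas2, the erythroid enzyme of heme synthesis, 12391 and 36857 (1.55). Slc25a37, which brings iron into mitochondria for heme, stood at 1.13. The neutrophil list had 5 of 8 at least 2-fold higher and a median of 1.12. Its median was 0.39 in Dox over Control and 0.58 in the Rh2-30 pair, so it stayed above 0 there, unlike the red cell list. The sum over the 12 listed genes, tested or not, was 2872 in Rh2-20 and 4465 in Rh2-20 + Dox. It was 1548 and 1777 in Control and Dox, and 1893 and 2633 in the Rh2-30 pair. Retnlg had 85 and 279 counts, S100a8 166 and 387, and Ltf, a granule protein, 19 and 75. The platelet and red cell sums thus move with Dox at 0 and 20 mg/kg, and the part of blood held in the hearts was not tested.

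Atrial genes were higher too. Of 8, 6 were at least 2-fold higher (against 4.09% of all genes) and all were above 0, with a median of 2.57. Bmp10, a growth factor made in the atria (chromosome 6, 87428994 to 87434512), had 4 counts in Rh2-20 and 7644 in Rh2-20 + Dox, 0 and 217 in Control and Dox, and 534 and 6 in the Rh2-30 pair, with the largest ratio at 20 mg/kg of any gene with over 3 counts in both libraries (10.70, interval 9.21 to 12.20). Sln, sarcolipin, which inhibits the sarcoplasmic calcium pump in the atria, had 326 and 4393 counts, 14 and 1828, and 15768 and 0 in the same order. Myl7, the atrial regulatory light chain, had 1187 and 10613, 56 and 9134, and 52896 and 19. Nppa, atrial natriuretic peptide, had 3252 and 16608, 3607 and 16217, and 56331 and 6416, 5.02-fold higher at 20 mg/kg. For each of the 4 genes Rh2-30 was the highest of the libraries without Dox. The sum of the 8 genes was 8628 in Rh2-20, 48552 in Rh2-20 + Dox, 6563 in Control, 39243 in Dox, 160159 in Rh2-30 and 9480 in Rh2-30 + Dox.

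Bmp10 did not keep step with the other atrial genes. Dox had 39243 in the atrial sum but 217 counts of Bmp10, and Rh2-20 + Dox had 48552 and 7644. Hamp, hepcidin, which is also made in heart, had 42 counts in Rh2-20 and 783 in Rh2-20 + Dox, 13 and 88 in Control and Dox, and 1388 and 7 in the Rh2-30 pair. Npy, neuropeptide Y, had 28 and 727, 61 and 486, and 414 and 45. The part that the share of atrium in a pool has in the values of Nppa, Sln and their neighbours was not tested.

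Mesothelial genes, from the surface layer of the heart, were higher in the 20 mg/kg pair. Of 8, 6 were at least 2-fold higher (against 4.09% of all genes) with a median of 1.46, while the median was -0.45 in Dox over Control and -2.54 in the Rh2-30 pair. Lrrn4 had 23 counts in Rh2-20 and 172 in Rh2-20 + Dox, 149 and 195 in Control and Dox, and 504 and 47 in the Rh2-30 pair. Msln, mesothelin, had 112 and 337, 341 and 342, and 843 and 150. In both genes Rh2-20 was the low library of the pair and lay below Control, and Rh2-20 + Dox was within the range of the others. The sum over the list was 2560 in Rh2-20 and 3398 in Rh2-20 + Dox, most of it from Wt1, which had 2229 and 2348 counts.

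**Figure D4:**
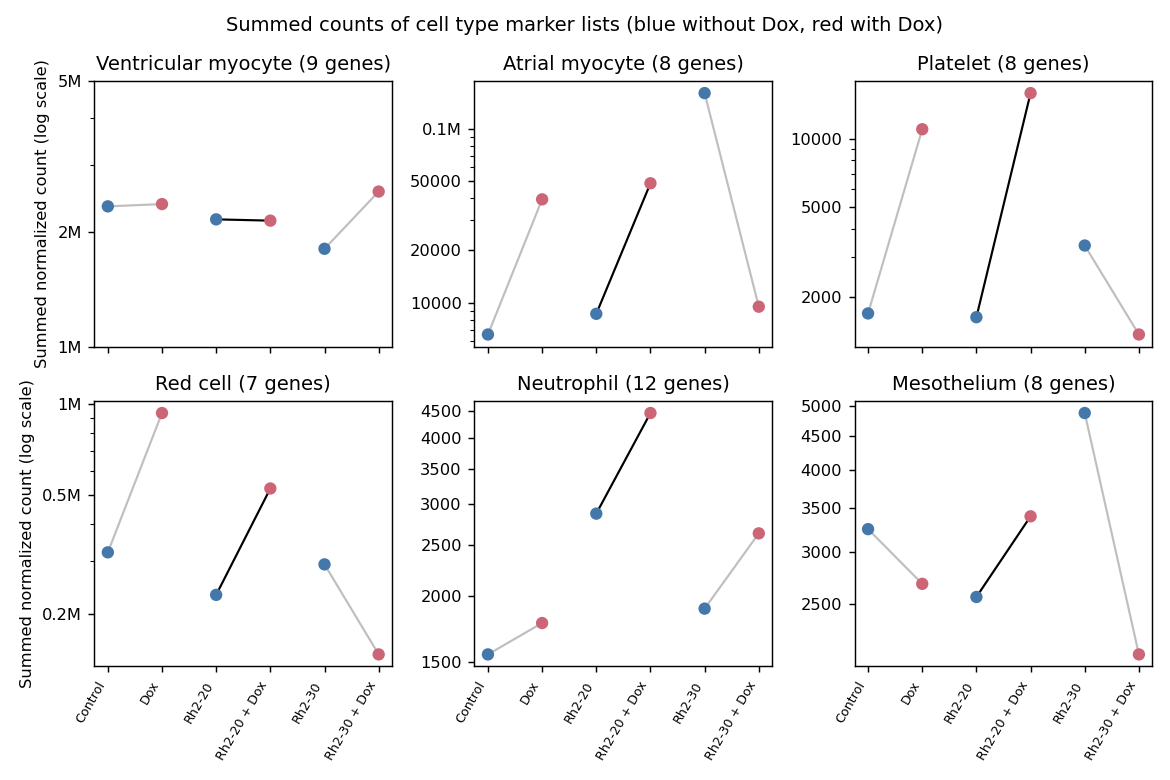
Normalized counts summed over marker lists of 6 cell types in each library, on log axes whose ranges differ between panels, with blue points without Dox, red points with Dox and a black line for the 20 mg/kg pair. The ventricular sum is flat in that pair, the platelet sum goes from 1623 to 15875, and the atrial, platelet, red cell and mesothelial lines slope down in the Rh2-30 pair.

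The contractile and energy genes of the ventricle did not reach 2-fold. No gene of the 28 on the sarcomere list, the 53 of the respiratory chain, the 36 of glucose use and the TCA cycle, or the 75 cytosolic ribosomal protein genes was called in either direction. Their medians were -0.05, -0.11, -0.16 and 0.15. Of all genes 4.09% were at least 2-fold higher and 2.87% lower, and 1.35% and 1.1% of those that averaged 100 counts or more. At such shares lists of this size would hold few calls. Of the respiratory chain genes 48 were below 0 and of the ribosomal protein genes 69 were above 0, within a range of -0.07 to 0.58 for the latter. Ventricular markers had a median of -0.02, with Myh6 at 1133148 and 1133554 counts and Tnnt2 at 127853 and 137012. Acta1, the skeletal actin that is re-expressed in stressed hearts, had 43715 and 26915 counts (log2 ratio -0.73, interval -1.40 to -0.05).

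Within fatty acid oxidation and PPAR targets, 26 of 31 genes were below 0 at 20 mg/kg, where 9113 of all 18328 genes were. The list median was -0.31 in both the 20 mg/kg pair and Dox over Control and 0.40 in the Rh2-30 pair. Ucp3, a mitochondrial carrier induced by fatty acids (chromosome 7, 100472991 to 100486432), had 3191 counts in Rh2-20 and 945 in Rh2-20 + Dox, 3861 and 966 in Control and Dox, and 4203 and 1693 in the Rh2-30 pair. All 3 libraries with Dox were below all 3 without, and the log2 ratio at 20 mg/kg was -1.78 (interval -2.46 to -1.10). Pdk4, the kinase that shuts pyruvate dehydrogenase (chromosome 6, 5483351 to 5496278), had 29573 and 12940, 25379 and 10090, and 36110 and 18419, again without overlap. Over the 3 doses Ucp3 and Pdk4 had an adjusted p of 0.476 in edgeR, and of 7.55e-12 and 2.62e-11 in DESeq2's Wald test. In the 20 and 0 mg/kg pairs alone, edgeR's adjusted p was 0.000702 for each, and 11 of the 31 genes were lower and 1 higher. Of all genes that fit called 1.11% lower and 1.54% higher, and it leaves out the Rh2-30 pair, where the list median was 0.40. The higher gene of the list was Ppargc1a, a coactivator of mitochondrial genes. Cpt2, which takes fatty acids into the matrix, stood at -0.62 and Angptl4 at -0.96, short of 2-fold. Among the immediate early genes Nr4a3 had 1111 and 396 counts (-1.51), and 22 of 25 were below 0.

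Matrix genes were mixed. Of 20 metalloproteinases and inhibitors, 4 were at least 2-fold higher and none lower (against 4.09% and 2.87% of all genes), with a median of 0.26. Mmp3, stromelysin 1, had 539 counts in Rh2-20 and 1492 in Rh2-20 + Dox, 395 and 696 in Control and Dox, and 900 and 510 in the Rh2-30 pair. Mmp8, the neutrophil collagenase, had 98 and 274, 29 and 42, and 51 and 167, higher with Dox in each pair. Mmp13 had 22 and 61 counts and Mmp27 42 and 87 at 20 mg/kg. Thbs1, thrombospondin 1, a matrix protein that platelets store (chromosome 2, 118111876 to 118127133), had 2091 and 12783 counts, 3832 and 5605, and 4090 and 1163, 6.01-fold higher at 20 mg/kg. Rh2-20 held the lowest count without Dox and Rh2-20 + Dox the highest of all. The major fibrillar collagens did not follow, with log2 ratios of -0.09 for Col1a1 and -0.25 for Col3a1. Comp, a cartilage matrix protein, had 451 and 1041 counts (1.18).

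Immune lists other than the neutrophil one differed in their share of calls. Macrophage markers had a median of -0.07 and none of the 13 was called. On the list of interferon gamma GTPases and antigen presentation no gene of 34 was called and the median was 0.09. In Dox over Control 15 were at least 2-fold higher (against 5.44% of all genes) and the median was 0.95. In the Rh2-30 pair none was at least 2-fold higher, 7 were lower (against 12.1% of all genes) and the median was -0.11. Igtp, an interferon-induced GTPase, had 1473 counts in Rh2-20 and 2246 in Rh2-20 + Dox but 1449 and 12340 in Control and Dox. The class II genes were lower in the 20 mg/kg pair, H2-Eb1 at -0.93 (676 and 362 counts, interval -1.62 to -0.23) and Cd74 at -0.88, and higher in Dox over Control, at 0.53 and 0.64. The test of the difference sets 20 mg/kg against the other 2 doses together, so it does not address this contrast with Dox over Control. That contrast was not tested. Of 39 chemokines and receptors 2 were at least 2-fold higher and 4 lower, against 4.09% and 2.87% of all genes. Cxcl13, a B cell chemokine, had 4 counts in Rh2-20 and 160 in Rh2-20 + Dox, 2 and 50 in Control and Dox, and 238 and 22 in the Rh2-30 pair. T cell markers were scarce in these athymic mice and 3 of 7 were at least 2-fold lower (42.9%, against 2.87% of all genes). These rested on few counts, with 34 and 8 of Cd4, 21 and 9 of Lck and 115 and 56 of Cd28.

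The stress-inducible heat shock genes Hspa1a and Hspa1b, which are near-identical neighbours on chromosome 17, were the only 2 of 28 chaperone genes called. Both were higher, which is 7.14% of the list, against 4.09% of all genes. Hspa1a had 2203 counts in Rh2-20 and 4896 in Rh2-20 + Dox, 8628 and 8449 in Control and Dox, and 8509 and 2051 in the Rh2-30 pair. Rh2-20 and Rh2-30 + Dox held the low values, and Rh2-20 + Dox lay below Control. The log2 ratio of Hspa1a at 20 mg/kg was 1.13.

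The remaining lists held few calls at 20 mg/kg, where 4.09% of all genes were at least 2-fold higher and 2.87% lower. On the cardiac stress list of 14 genes only Nppa was at least 2-fold higher, and among 31 genes of calcium handling and ion channels only Sln was. Chac1, a glutathione-degrading enzyme of the stress response, had 356 and 179 counts and was the only call both among 33 antioxidant and ferroptosis genes and among 27 genes of the integrated stress response. None of 19 circadian genes or 21 genes of atrophy and ubiquitin ligases was called, and Pmaip1 alone was among 34 apoptosis genes. Lcn2, lipocalin 2, had 224 and 470 counts and stood with Pdk4 as the only calls among 22 glucocorticoid targets and metallothioneins. Tlr11, a receptor for microbial profilin, had 57 and 15 counts and was the only call among 18 Toll-like receptors and cytokines. Of 27 collagen chains Col11a1 (51 and 158 counts), Col8a2 (18 and 51) and Col4a6 (0 and 17) were at least 2-fold higher. This is 11.1% of the list, against 4.09% of all genes. Fibroblast, endothelial, smooth muscle, B cell and epidermal markers held no call.

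Markers of other tissues were summed in the same way. The sum was 77374 normalized counts in Rh2-20 and 54151 in Rh2-20 + Dox for skeletal muscle, 63989 and 65088 for white fat, and 27023 and 25465 for brown fat. The liver list was at 139 and 136 and the lung list at 59.9 and 130. Of 9 skeletal muscle genes tested, Myh1 (0 and 28 counts) and Actn3 (10 and 35) were at least 2-fold higher. Tnni2 (23 and 10) was at least 2-fold lower. Of all genes 4.09% were at least 2-fold higher and 2.87% lower. Pck1 of white fat, a gluconeogenic enzyme, had 307 and 60 counts and Retn 43 and 97. Calls on the other lists rested on few counts, with 9 and 51 of Scgb1a1 of the airway, 0 and 18 of Ttr of the liver, 5 and 26 of Gzma of NK cells, and 3 and 0 of Elovl3 of brown fat.

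Some of the largest ratios rested on a single library of the series. Gm15564, a long noncoding RNA (chromosome 16, 35966751 to 35983329), was listed at 0 in Rh2-20 and had 50571 counts in Rh2-20 + Dox and 36868 to 64699 in the other 4 libraries, a ratio of at least 16564-fold by the floor of 3 counts. Ptger1, a prostaglandin E receptor gene, had 8 counts in Rh2-20 against 201 in Rh2-20 + Dox and 127 to 191 elsewhere, Far2, a fatty acyl reductase, 6 against 126 and 100 to 148 elsewhere, and St6galnac3, a sialyltransferase, 157 against 1135 and 1034 to 1175 elsewhere. In these 4 genes Rh2-20 was the library that stood apart. In the other direction Gsdma3, a gasdermin, had 738 counts in Rh2-20, 0 in Rh2-20 + Dox and at most 5 elsewhere, and Fibcd1 had 669, 0 and at most 2. Gm20604 had 459 counts in Rh2-20, 34 in Rh2-20 + Dox and 475 to 724 elsewhere, so that here Rh2-20 + Dox stood apart. Gm38431 and Gm38495 had 465 and 30, and 4106 and 399. Several of these are readthrough or noncoding loci that overlap other genes, where reads could be assigned to either.

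The question whether the Dox effect at 20 mg/kg differs from that at the other 2 doses was put to edgeR's quasi-likelihood test of the difference, with 1 residual degree of freedom. No gene passed an adjusted p of 0.05 (0%), and 205 had an unadjusted p under 0.05. The lowest adjusted p was 0.191 (edgeR), for Gm15564. DESeq2's Wald test called 8 genes, among them Gm15564, Gm20604 and St6galnac3. For Nek2, Bub1, Mki67 and Top2a the adjusted p of the difference was 1 (edgeR), with differences on the log2 scale of -0.36 ± 0.79, -0.19 ± 1.41, 0.63 ± 1.31 and 0.81 ± 1.54 (SE), so that differences of well over 2-fold in either direction were not detectable.

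The direction of the calls at 20 mg/kg was then read in the other 2 pairs. Of the 526 lower genes, 360 (68.4%) were below 0 in Dox over Control and 405 (77%) in the Rh2-30 pair, against 50.5% and 53% of all genes. Both held for 292 (55.5%, against 27.4% of all genes), while 49 were above 0 in both. Of the 750 higher genes, 510 (68%) were above 0 in Dox over Control but 215 (28.7%) in the Rh2-30 pair, against 49.1% and 46.9% of all genes. Being above 0 in both held for 147 (19.6%, against 23.8% of all genes), while 152 were below 0 in both. In the Rh2-30 pair 344 of the 750 (45.9%) were at least 2-fold lower, where 12.1% of all genes were. With a mean of at least 100 counts, 171 of 188 higher genes were above 0 in Dox over Control and 40 in the Rh2-30 pair. Of all genes at that count level 48.3% and 51.2% were. Of 154 lower genes 136 and 138 were below 0, against 51.7% and 48.8% of all genes at that level. As the atrial, platelet and red cell sums above go the opposite way in the Rh2-30 pair, they move with this split, and their part in it was not tested.

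**Figure D5:**
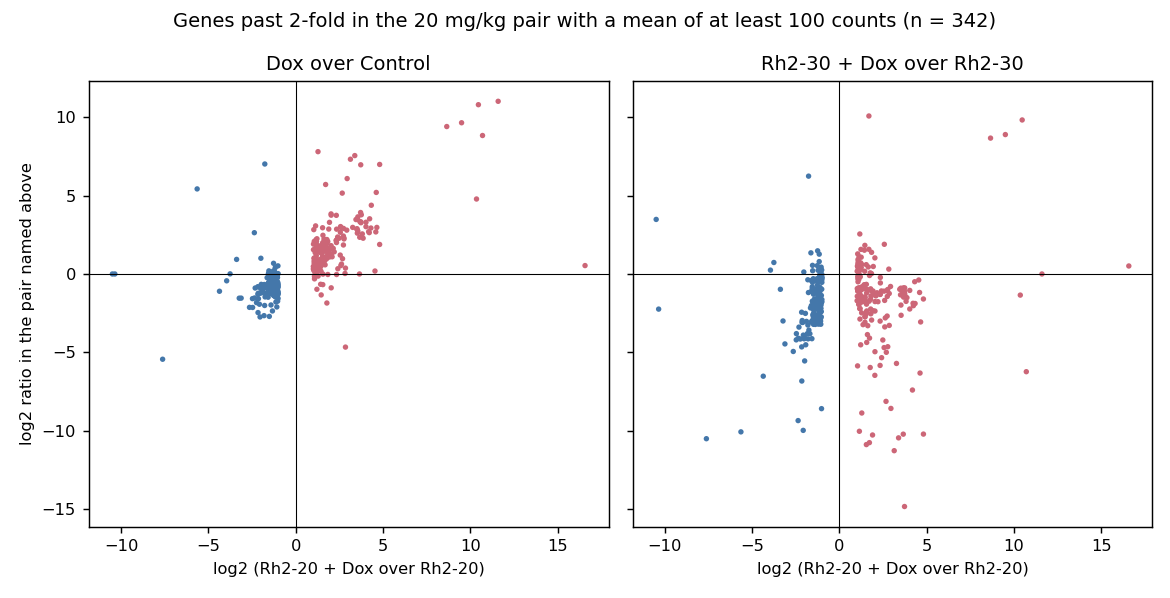
Log2 ratios of the 342 genes past 2-fold in the 20 mg/kg pair with a mean of at least 100 counts, against their ratio in Dox over Control (left) and in Rh2-30 + Dox over Rh2-30 (right), 1 point per gene, red where higher and blue where lower at 20 mg/kg. On the left both colours lie mostly in the quadrants of equal sign, and on the right 138 of the 154 blue points are below 0 while 114 of the 188 red points are at least 2-fold lower.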

How the data were processed

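RNA-seq was made from 6 libraries, each pooled from 5 mouse hearts, with the SureSelectXT RNA Direct kit. The authors ran bcl2fastq 2.20.0, Trimmomatic, HISAT2 2.1.0 and StringTie 2.1.3b on mm10. The deposited read counts per gene are whole numbers and were used for every main value, and the FPKM values deposited by the authors served as alternatives. TPM values, also deposited by the authors from StringTie, were not used. Gene IDs were matched to RefSeq (GRCm38.p6) for 45679 of 45777 genes.

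Genes with a mean count of at least 10 were normalized by TMM in edgeR 4.0.16 (R 4.3.3, limma 3.58.1), and the log2 ratio was taken with a prior count of 0.5. Intervals are 95%. The counting interval was exact and covers counting error only, and the wider one adds the common dispersion. Dox over the 3 Rh2 doses, and the difference at 20 mg/kg, were tested with edgeR's quasi-likelihood test and Benjamini-Hochberg adjustment, with DESeq2 1.42.0 as an alternative. The steps were tested on simulated data. Named genes were the 10 largest ratios each way with over 3 counts in both libraries and at least 100 in 1 of them, the 5 each way with the largest smallest ratio over the 3 pairs, the 5 each way with the lowest p in the difference test, up to 3 members or defining members of each of 51 lists, and the 3 each way with the most counts against 3 or fewer. The genes outside these rules (such as Kif11, Tmpo and Ppargc1a) were chosen after their values were seen. Members and lists were chosen with earlier results of these data known. A few genes that these rules name are not reported here.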

Additional observations from a re-analysis of the deposited data

Results flagged for a closer look

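Several results of the 20 mg/kg pair had the opposite direction in the Rh2-30 pair. The difference was not tested between these 2 pairs. The median log2 ratio of the atrial list was 2.57 at 20 mg/kg and -5.23 at 30 mg/kg, that of the platelet list 3.71 and -1.44, that of the red cell list 1.15 and -1.05, and that of the mesothelial list 1.46 and -2.54. Each pair is 1 library against 1.

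Among single genes Bmp10 stood at 10.70 and -6.24, Cxcl13 at 5.13 and -3.28, and Npy at 4.65 and -3.06. Pls1, plastin 1, stood at 4.81 and -1.60. The platelet genes Gp9 and Tubb1 stood at 4.59 and -1.18 and at 4.23 and -2.02.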

How the results depend on the processing

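With 1 pooled library per condition, ratios have no replicate check, and counting error is small beside the unknown spread between pools. The 174 named genes were taken through DESeq2 size factors, TMM on the pair alone, total counts, a prior count of 2 and the FPKM scales. None with a ratio of at least 2-fold changed direction. Changes of direction in smaller ratios were not counted. Under log2(FPKM + 1), on which low genes are pulled to 0, 109 of the 174 moved. Calls were 750 higher and 526 lower. They became 2732 and 2218 with no filter, 188 and 154 with a mean of at least 100, 93 and 34 on log2(FPKM + 1), 302 and 228 on log2(FPKM + 0.1), and 1584 and 1213 at 1.5-fold. Calls with the same sign in both other pairs were 147 and 292. They became 38 and 126 with a mean of at least 100 and 12 and 24 on log2(FPKM + 1), and with 1 other pair alone, chosen after seeing the data, 215 to 510 and 360 to 405. On log2(FPKM + 1) the list medians were -0.39 for G2/M, 0.37 for mesothelium, 0.42 for neutrophils and 2.19 for platelets. The median of the 2 liver genes, 2.33, reversed to -0.49 with a mean of at least 100, to -0.49 with over 3 counts in every library, and to -0.0011 on log2(FPKM + 1). The edgeR test over the 3 doses called 0 genes, with 1598 at an unadjusted p under 0.05. Leaving out a pair gave 0 to 487, the upper value without the 30 mg/kg pair. Dox as the only term, without the Rh2 dose block, gave 5, and DESeq2's Wald test gave 311. For the difference at 20 mg/kg edgeR called 0, with 205 unadjusted, and DESeq2 called 8. The cause of these shifts was not tested.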
